A study of Mus musculus with 4 samples.

Results

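The 36 genes described here encode the machinery of mitosis and of the G2 phase that precedes it, and all 36 were found by symbol among the 32285 genes of both count matrices. They were grouped into 8 roles: cyclins and their kinase (Ccna2, Ccnb1, Ccnb2, Cdk1, Cks2), parts and substrates of the anaphase-promoting complex (Cdc20, Ube2c, Pttg1), kinases and checkpoint proteins (Aurka, Aurkb, Plk1, Bub1, Bub1b, Pbk), partners of Aurora B (Birc5, Cdca8), kinesins (Kif4, Kif11, Kif15, Kif20a, Kif20b, Kif23, Cenpe), kinetochore and centromere proteins (Cenpa, Cenpf, Knl1, Knstrn), spindle and midbody proteins (Tpx2, Nusap1, Hmmr, Ckap2l, Aspm, Prc1, Cep55) and chromosome proteins (Mki67, Top2a). Single-cell gene expression had been measured in lineage-negative, Sca-1-positive, Kit-positive bone marrow cells, in which haematopoietic stem cells (HSCs) and multipotent progenitors are found, and which the submitters call HSCs. The cells came from 2 male Tppp3CreER LSLTdTomato mice, both given tamoxifen at postnatal days 0 and 3 and sampled at 3 months of age. Cre was driven by Tppp3, so tdTomato marked cells, and their progeny, in which that gene's Cre had been active around birth. tdTomato-positive and tdTomato-negative cells of each mouse were sorted apart, giving 4 tubes. Each tube was stained with its own hashtag and loaded in part on GEM-X and in part on v3.1, which are droplet kits of 10x Genomics.

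As background, entry into mitosis is driven by cyclin B bound to Cdk1, and the spindle is built and the chromosomes moved by kinesins and microtubule binding proteins. The anaphase-promoting complex then marks cyclins and securin (Pttg1) for destruction, and the midbody is cut to separate the daughters. Transcripts of these genes build up late in the cell cycle and are held low in resting cells by the DREAM complex, which together with its relative B-Myb-MuvB binds a short promoter element, TTTGAA, known as the cell cycle genes homology region. NF-Y binds CCAAT boxes in many of the same promoters. Adult HSCs are known as mostly resting cells, while committed progenitors divide often.

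The promoters of 5 central members are shown because these letters are the element that the members are known to share. Each runs from 150 bases before to 50 bases after the annotated start, 5′ to 3′ on the strand of the gene, in RefSeq coordinates of GRCm38.p6. Capitals mark TTTGAA (or TTCAAA, its form on the other strand) and CCAAT (or ATTGG).
Cdk1, chr10:69352863-69353062, minus strand: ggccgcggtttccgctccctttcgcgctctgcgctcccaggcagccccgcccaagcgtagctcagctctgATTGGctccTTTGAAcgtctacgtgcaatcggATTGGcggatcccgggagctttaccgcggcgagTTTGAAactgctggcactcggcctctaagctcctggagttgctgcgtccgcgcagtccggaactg
Ccnb2, chr9:70421505-70421704, minus strand: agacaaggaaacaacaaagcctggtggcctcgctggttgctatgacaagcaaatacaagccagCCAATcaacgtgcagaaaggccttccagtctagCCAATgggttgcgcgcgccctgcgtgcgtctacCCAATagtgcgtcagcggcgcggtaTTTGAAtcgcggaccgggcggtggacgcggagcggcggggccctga
Ube2c, chr2:164769779-164769978, plus strand: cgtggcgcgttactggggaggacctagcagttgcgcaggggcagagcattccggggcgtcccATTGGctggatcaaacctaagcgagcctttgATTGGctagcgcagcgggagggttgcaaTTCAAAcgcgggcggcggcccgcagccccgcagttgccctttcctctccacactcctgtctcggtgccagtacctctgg
Plk1, chr7:122159285-122159484, plus strand: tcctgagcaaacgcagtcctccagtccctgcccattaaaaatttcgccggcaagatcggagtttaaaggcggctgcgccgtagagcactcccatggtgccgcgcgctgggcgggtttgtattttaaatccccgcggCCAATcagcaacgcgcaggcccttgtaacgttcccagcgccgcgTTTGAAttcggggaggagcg
Ccnb1, chr13:100786437-100786636, minus strand: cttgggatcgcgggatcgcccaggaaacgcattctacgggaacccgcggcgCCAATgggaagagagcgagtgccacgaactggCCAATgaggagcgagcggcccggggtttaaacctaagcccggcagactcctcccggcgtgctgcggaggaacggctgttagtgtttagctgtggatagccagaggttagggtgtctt
Cdk1 is the mitotic kinase, Ccnb1 and Ccnb2 are its cyclins, Plk1 is the Polo-like kinase, and Ube2c is the ubiquitin-conjugating enzyme of the anaphase-promoting complex. Ccnb1 has no TTTGAA in this window, although the related letters TTTAAA lie shortly before its start. Promoters of 250 bases before to 50 after the start were given for 31 of the 36 members. TTTGAA, read on both strands, stood in 23 of these 31 (74.2%) and in 18.1% of all 27025 promoters searched. Within 50 bases of the start it stood in 22 members (71.0%), against 4.92% of all promoters. CCAAT, also on both strands and counted separately from any overlap with TTTGAA, stood in 23 members (74.2%) and in 37.9% of all promoters, and 2 or more copies stood in 17 members (54.8%) against 12.2% of all promoters. Members without TTTGAA were Birc5, Bub1, Ccnb1, Cenpe, Cks2, Knstrn, Nusap1 and Pttg1. Searches for TTCGAA and TTTAAA found 3 members (9.68%) and 8 members (25.8%), against 1.57% and 13.2% of all promoters. A match describes letters only.

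After filtering, 32330 cells carried exactly 1 hashtag. The positive tubes of mouse 1 and mouse 2 held 3867 and 3933 cells, and the negative tubes held 12144 and 12386 cells. Summed unique molecular identifiers (UMIs) per tube ran from 34833395 to 131548131, and the median per cell from 7731 to 9315. No barcode was shared between the 2 gene expression libraries, and no tube stood apart in the summed level of the 36 genes. Of the sort antigens, Kit ran from 285 to 373 CPM (UMIs of a gene per 1000000 UMIs of a tube or class) and Ly6a (Sca-1) from 58.0 to 64.5 CPM over the tubes. The lineage antigen Cd3e was at most 0.070 CPM, but other genes of mature lineages were present. Nkg7 (T and NK cells) ran from 129 to 166, Cd79b (B cells) from 27.2 to 30.1 and S100a8 (neutrophils) from 39.3 to 57.6 CPM. All values come from 2 animals, so the p-values below speak only for these tubes. They measure the spread that remains once the mouse (gates) or the tube (classes and chemistries) is fitted as a block. CPM of 3′ counts are not scaled by transcript length, so levels are compared within a gene and not between genes.

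Division was also described cell by cell. Each cell was thinned to 3000 UMIs, which left out 1009 shallower cells, and a cell was called high in mitosis genes at 10 or more UMIs over the 36 genes. Of 31321 cells, 6294 (20.1%, exact 95% interval 19.7 to 20.5%, for counting error only) were high. Of the rest, 9211 cells had no UMI of any member and 7566 had 1. The threshold cut a continuous range: 332 cells had 8, 278 had 9, 304 had 10 and 243 had 11 such UMIs, while 4026 had 20 or more. A high cell had UMIs of 15 different members at the median, against 1 member in the other cells, a difference that the threshold itself makes. High cells held more RNA before thinning, with a median of 15734 UMIs against 7922. Doublet scores of at least 0.2 in Scrublet were found for 2.67% of high cells and 0.895% of the others. Shares without these cells and without thinning are given below.

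Cells were classed by the summed UMIs of lineage markers, none of which is a mitosis gene. In the order of their summed member level, the classes were erythroid (191 cells), mast-basophil (129), megakaryocyte (383), granulocyte-monocyte (2410), no marker over its threshold (12915), lymphoid (3501) and HSC-marker (9483). A further 2257 cells passed more than 1 threshold. The name of a class means its markers and not function. The HSC-marker class (at least 8 UMIs of 12 genes such as Mecom, Hlf and Procr) had 1885 cells at the threshold and 2239 cells lay just below it. For the granulocyte-monocyte class (at least 5 UMIs of genes such as Elane and Mpo) these numbers were 934 and 1593, and for the lymphoid class (at least 5 UMIs of genes such as Dntt and Flt3) 1410 and 2076.

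Mitosis genes were lowest in the HSC-marker class and highest in the erythroid, mast-basophil and megakaryocyte classes. The 36 genes together made up 6171 ± 403 CPM in the erythroid class (SD, n = 4 tubes) and 5883 ± 551 CPM in the megakaryocyte class. The erythroid class had only 20 and 18 cells in the positive tubes of mice 1 and 2, and 51 and 102 in the negative tubes. Their sum was 4880 ± 98.1 CPM in the granulocyte-monocyte class, 3935 ± 191 CPM in the no-marker class and 3822 ± 269 CPM in the lymphoid class. In the HSC-marker class it was 1591 ± 324 CPM. The mast-basophil class, with 9 to 58 cells per tube, ranged from 4172 to 9147 CPM. The erythroid and megakaryocyte classes overlapped each other, and so did the no-marker and lymphoid classes, while every tube of every other class lay above all tubes of the HSC-marker class. In such sums, fewer dividing cells and less of these transcripts per cell cannot be told apart, and the shares of high cells give a separate view.

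The share of high cells had nearly the same order. It was 67.8 ± 12.3% in the erythroid class, 43.2 ± 1.92% in the granulocyte-monocyte class and 39.8 ± 5.89% in the megakaryocyte class (mean ± SD, n = 4 tubes). It was 24.8 ± 1.83% in the no-marker class and 21.7 ± 3.16% in the lymphoid class. In the HSC-marker class 8.46% and 5.10% of cells were high in the positive tubes of mice 1 and 2, and 8.16% and 5.30% in the negative tubes. Within a tube, the granulocyte-monocyte share was 6.77 ± 1.89 times that of the HSC-marker class, the no-marker share 3.82 ± 0.773 times and the lymphoid share 3.37 ± 1.01 times. Without Scrublet doublets these ratios were 6.92, 3.88 and 3.42, and with no thinning they were 6.02, 3.53 and 2.97. With stricter class thresholds they were 14.1, 5.68 and 4.86. The smallest two-sided p that 4 paired tubes allow is 0.125, so no test of shares was made. Of all high cells, 3149 of 6294 were in the no-marker class, 16.3% in the granulocyte-monocyte class, 11.7% in the lymphoid class and 10.1% in the HSC-marker class.

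**Figure D1:**
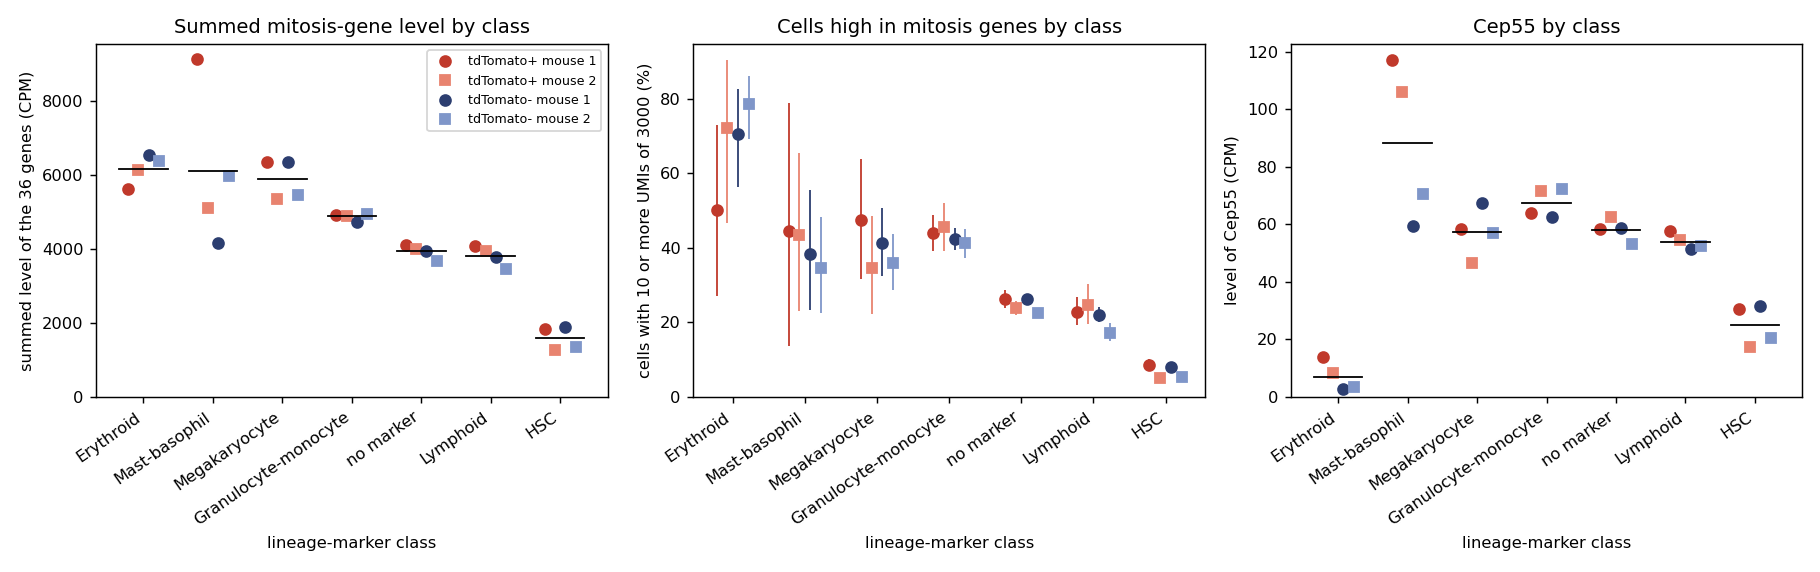
Summed CPM of the 36 mitosis genes (left), percent of cells with 10 or more of their UMIs after thinning (middle) and CPM of Cep55 (right), by lineage-marker class, 1 point per tube. Bars in the left and right panels are means of 4 tubes and vertical lines in the middle panel are exact 95% intervals; the HSC-marker class is lowest in the left and middle panels, while Cep55 is lowest in the erythroid class, at 2.91 to 13.8 CPM.

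Set against the HSC-marker class within tubes, all 36 genes were higher in the granulocyte-monocyte class in edgeR's quasi-likelihood test (Benjamini-Hochberg adjusted p under 0.05 over all genes). In that comparison 76.4% of all genes were called and 34.7% were called higher, since the classes differ broadly. The median difference of the 36 genes was 1.81 on the log2 scale, from 1.09 (Kif23) to 2.26 (Aurkb), while the median of all genes was -0.08. Mki67, which coats mitotic chromosomes and is the usual marker of cycling cells, had 519 and 561 CPM in granulocyte-monocyte cells of the positive tubes of mice 1 and 2 and 522 and 567 CPM in those of the negative tubes. In HSC-marker cells it had 196 and 138 CPM in the positive tubes and 217 and 160 CPM in the negative tubes. No value of either class overlapped the other, and the difference was 1.79 ± 0.0742 (SE of the fit; 3.45-fold).

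The cyclins and their kinase rose in granulocyte-monocyte cells by a median of 1.87. Cdk1 had 127, 111, 114 and 111 CPM in the granulocyte-monocyte class of the 4 tubes (positive mouse 1, positive mouse 2, negative mouse 1, negative mouse 2, an order kept below), against 42.5, 27.9, 41.6 and 30.1 CPM in the HSC-marker class, a difference of 1.87 ± 0.0559. Ccnb1 had 60.7, 42.3, 49.8 and 46.9 CPM against 18.3, 12.5, 18.3 and 11.5 CPM (1.90 ± 0.0864). Ccna2, the cyclin of S and G2 phase, differed by 2.08 ± 0.0684. The groups did not overlap for any of these genes.

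Aurkb had the largest of the 36 differences. Aurkb, the kinase of the chromosomal passenger complex, had 78.4, 75.0, 72.0 and 68.1 CPM in the granulocyte-monocyte class, against 18.3, 15.6, 19.9 and 14.4 CPM in the HSC-marker class (2.26 ± 0.0636, 4.80-fold). Birc5 (survivin), which brings that complex to the centromere, differed by 2.14 ± 0.0683. Plk1 had 46.4, 27.3, 39.1 and 31.4 CPM against 11.2, 6.52, 11.7 and 6.0 CPM (2.21 ± 0.0995). Ube2c had 218, 163, 175 and 186 CPM against 62.9, 36.3, 61.7 and 38.0 CPM (2.08 ± 0.0914). Top2a, the topoisomerase that untangles chromatids, differed by 1.88 ± 0.0585, and Kif15, a spindle kinesin, by 2.07 ± 0.0554. By role, the medians ran from 1.52 (kinetochore and centromere) to 2.10 (partners of Aurora B).

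The lymphoid and no-marker classes showed the same direction with smaller differences. All 36 genes were called higher in the lymphoid class than in the HSC-marker class (57.9% of all genes called, 28.3% higher), with a median of 1.27 and a range from 0.86 (Kif20b) to 1.5 (Mki67). Lymphoid Mki67 had 536, 485, 479 and 436 CPM. In edgeR's fit Cenpe, the kinesin that holds chromosomes at kinetochores, differed by 1.47 ± 0.0727 and Cenpf, a kinetochore protein of G2, by 1.47 ± 0.114. Kif15 differed by 1.46 ± 0.0583, Kif20a, a kinesin of cytokinesis, by 1.45 ± 0.107 and Top2a by 1.45 ± 0.0589. For Plk1, Ube2c, Ccnb1 and Cdk1 the lymphoid differences were 1.44, 1.35, 1.20 and 1.10.

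In the no-marker class all 36 were higher too (60.2% of all genes called, 25.3% higher), with a median of 1.30 and a range from 0.74 (Cenpa) to 1.61 (Mki67). No-marker Mki67 had 556, 566, 526 and 505 CPM. Kif15 differed by 1.57 ± 0.0518, Knl1, a scaffold of the kinetochore, by 1.49 ± 0.0718, Bub1, a spindle checkpoint kinase, by 1.46 ± 0.0619 and Kif4, a chromosome-bound kinesin, by 1.44 ± 0.0699. For Top2a, Plk1, Cdk1, Ccnb1 and Ube2c the no-marker differences were 1.45, 1.31, 1.21, 1.13 and 1.06. The 3 classes share the same HSC-marker cells as reference. The groups of 4 tubes overlapped for no member in any of the 3 comparisons, where the share of all genes lying wholly above was 21.3% (granulocyte-monocyte), 17.9% (lymphoid) and 20.1% (no marker).

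**Figure D2:**
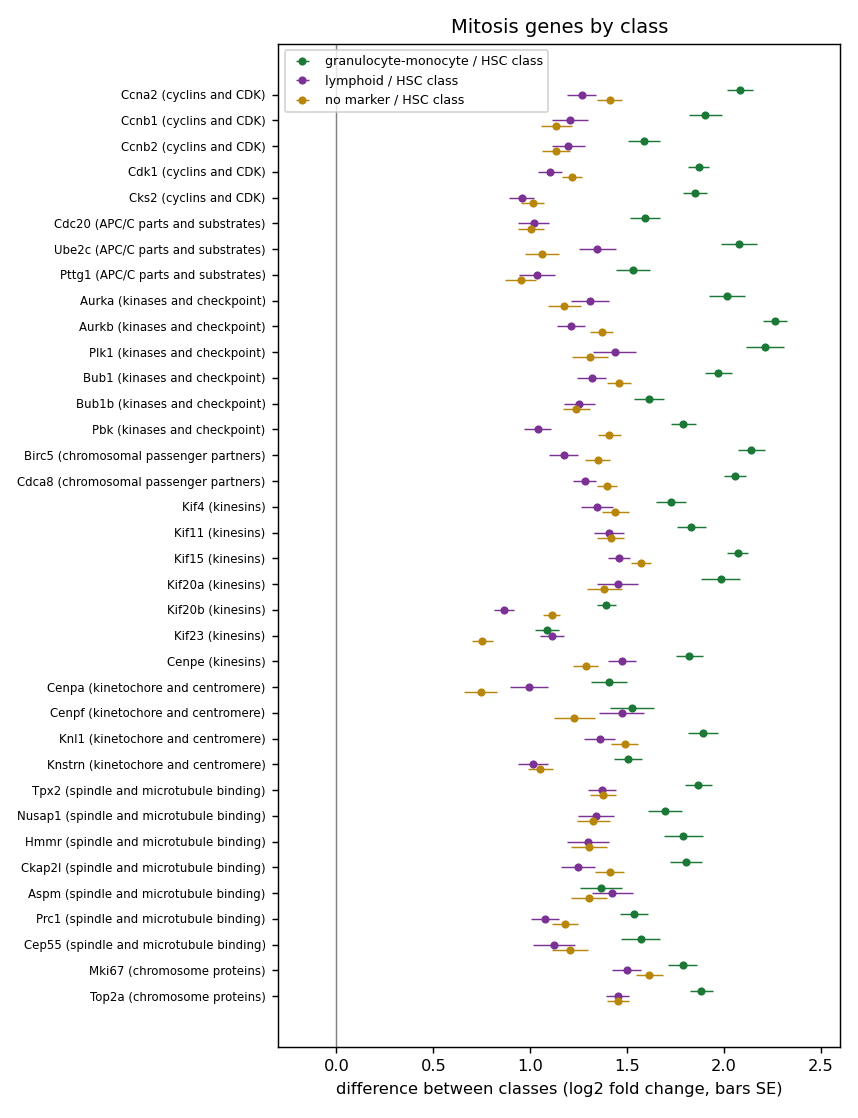
Difference of each of the 36 mitosis genes (log2, edgeR fit over 16 sums per tube and class) in the granulocyte-monocyte, lymphoid and no-marker classes over the HSC-marker class, with SE bars, genes grouped by role. All points lie above 0, from 0.74 (Cenpa, no marker) to 2.26 (Aurkb, granulocyte-monocyte).

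The other genes of the cell cycle moved in the same classes. Of 43 further mitosis genes, all were called higher in the granulocyte-monocyte, lymphoid and no-marker classes, with medians of 1.58, 1.12 and 1.18. Of 24 genes of S phase, 23, 23 and 24 were called higher, with medians of 1.12, 0.69 and 0.88, and 1 was called lower in the lymphoid class. Rrm2, the ribonucleotide reductase subunit of S phase, had the largest difference of that list in granulocyte-monocyte cells (2.35 ± 0.0727), and Cdca3, a trigger of mitotic entry, differed by 2.21 ± 0.0685. Of 15 regulators of the G2/M program, 11 were called higher and 1 lower in the granulocyte-monocyte class, and 12 higher and 1 lower in each of the lymphoid and no-marker classes. Those raised in granulocyte-monocyte cells included Mybl2 (B-Myb; 2.07 ± 0.0738), the repressor E2f8 (2.01 ± 0.0615) and Foxm1 (1.51 ± 0.0906). The regulator called lower in all 3 was Rbl2 (p130), a pocket protein of the DREAM complex. It differed by -0.60 ± 0.0449, -0.16 ± 0.0430 and -0.22 ± 0.0369 in the granulocyte-monocyte, lymphoid and no-marker classes. Rbl1, of the same list and named here only for comparison, went the other way. It averaged 97.2, 95.1 and 110 CPM in these classes, against 69.8 CPM in HSC-marker cells.

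Of 11 cell cycle inhibitors and resting-state genes, 3 were called higher and 6 lower in the granulocyte-monocyte class, and 4 higher and 4 lower in each of the lymphoid and no-marker classes, where 76.4%, 57.9% and 60.2% of all genes were called. Cdkn1c (p57), an inhibitor known to hold HSCs at rest, averaged 1.89 CPM in granulocyte-monocyte, 3.92 in lymphoid and 7.88 in no-marker cells, against 22.8 CPM in HSC-marker cells. Its differences were -3.25 ± 0.134, -2.64 ± 0.121 and -1.47 ± 0.0757. Txnip, a binding partner of thioredoxin, averaged 88.4, 156 and 191 CPM in the same classes, against 342 CPM in HSC-marker cells. Cdkn1a (p21), also an inhibitor, went the other way and was higher by 1.94 ± 0.115, 1.49 ± 0.123 and 1.10 ± 0.105, so the list did not move as a whole.

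The share of high cells was then read along the number of marker UMIs, with no class threshold. With 0 to 1 UMIs of the HSC markers 44.7% of cells were high, and the share was 31.1% at 2 to 3, 18.9% at 4 to 7, 11.8% at 8 to 9, 5.89% at 10 to 14 and 3.04% at 15 to 19. At 20 or more, 7 of 972 cells (0.720%, exact interval 0.290 to 1.48%) were high. The order held in the positive tubes of mouse 1 (49.6, 34.9, 18.6, 14.3, 7.80, 6.06 and 2.75%) and mouse 2 (44.1, 30.8, 18.8, 8.91, 4.30, 1.40 and 0%), and in the negative tubes of mouse 1 (45.5, 32.3, 20.8, 12.9, 7.76, 3.97 and 0.831%) and mouse 2 (42.2, 28.7, 17.1, 10.8, 3.94, 1.57 and 0.264%). The share of 0 in mouse 2 came from 123 cells and allows up to 2.95%.

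The other marker lists had other shapes. Along the granulocyte-monocyte markers the share was 18.4% at 0, 16.4% at 1 and 18.8% at 2 to 4 UMIs, and then 31.8% at 5 to 9, 44.6% at 10 to 19 and 67.2% at 20 or more. Along the megakaryocyte markers it was 20.8% at 0 and 47.1% at 5 or more. Along the lymphoid markers it was nearly level, at 25.3% at 0 and 22.7% at 12 or more, with 17.4 to 19.3% between. Cells with more markers of one list hold fewer UMIs for others at a fixed depth, and the part of this in the shapes was not tested. Median depth before thinning was 7024 UMIs in the HSC-marker class, 14575.5 in the granulocyte-monocyte class and 9511 in the lymphoid class.

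**Figure D3:**
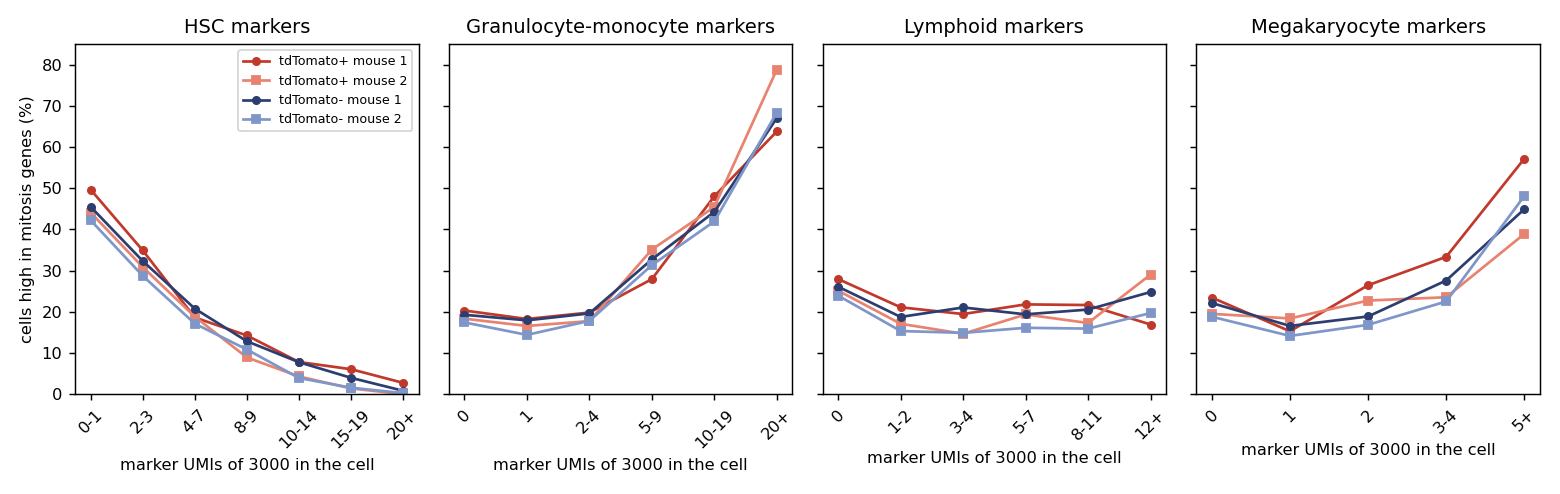
Percent of cells high in mitosis genes (y axis) against the UMIs of each marker list in a cell thinned to 3000 UMIs (x axis), 1 line per tube. The share falls from 44.7 to 0.720% along the HSC markers over all tubes, climbs from 18.4 to 67.2% along the granulocyte-monocyte markers and stays between 17.4 and 25.3% along the lymphoid markers.

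The 634 high cells of the HSC-marker class also held more UMIs of other cell cycle genes. The 43 further mitosis genes had a mean of 15.7 UMIs in them, against 1.46 in the other cells of that class, and the S phase genes 9.09 against 3.48. Resting-state genes were near the same level, at 2.23 against 2.40. Scrublet scores of at least 0.2 were found for 4.57% of them and 0.791% of the other HSC-marker cells. In Leiden clusters made without cell cycle genes, 52.7% of them fell into 1 unnamed cluster in which 99.5% of cells were high, and 31.5% into another unnamed cluster. Clusters thus sorted in part by division. In clusters named HSC 0.10 ± 0.073% of cells were high, against 6.75 ± 1.80% in the HSC-marker class (mean ± SD, n = 4 tubes). The marker classes were the units of the tests.

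Among the smaller classes, all 36 members lay wholly above the HSC-marker class in megakaryocyte cells (17.0% of genes) and 34 in mast-basophil cells (8.88%). Between the classes above the HSC-marker class the order held for fewer genes. In the granulocyte-monocyte class 29 of 36 members lay above the no-marker class in every tube against every tube (15.1% of all genes did) and 27 above the lymphoid class (17.6%). Megakaryocyte cells lay above no-marker cells for 32 members (11.7%) and above granulocyte-monocyte cells for 10 (17.0%). Between lymphoid and no-marker cells, 2 members lay above (Kif23 and Cenpa; 12.4% of genes) and 5 below (Bub1, Pbk, Kif4, Kif20b and Ckap2l; 20.1%), and the others overlapped.

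Erythroid cells had high levels of most members but the lowest of Cep55, the protein that recruits the machinery that cuts the midbody. Cep55, Kif23 and the genes set beside them here were chosen after their values were seen, and the values are a description. In the erythroid class 34 of 36 members lay wholly above the HSC-marker class (20.4% of all genes), Kif23 overlapped it, and Cep55 lay wholly below it (51.1% of all genes did). Cep55 had 13.8, 8.45, 2.91 and 3.36 CPM in the erythroid class (20, 18, 51 and 102 cells), against 30.5, 17.5, 31.5 and 20.4 CPM in the HSC-marker class. In the granulocyte-monocyte class it had 63.8, 71.7, 62.6 and 72.3 CPM. Against granulocyte-monocyte cells, 20 members lay wholly above in erythroid cells (17.2% of genes) and 2 wholly below, Cep55 and Kif23 (34.4%). Kif23 encodes a kinesin of the central spindle, and it had 53.2, 57.0, 58.9 and 42.3 CPM in erythroid cells, against 85.8, 90.0, 93.2 and 96.8 CPM in granulocyte-monocyte cells.

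Shares of cells with a UMI were also read among cells high in mitosis genes, at equal depth. They come from the same cells and counts as the class levels and are not separate support. A Cep55 UMI was found in 1 of 139 high erythroid cells (0.719%, exact interval 0.0182 to 3.94%). In high cells of the other classes it was found in 24.1% (247 of 1027, granulocyte-monocyte), 18.2% (megakaryocyte), 34.3% (lymphoid), 34.8% (no marker) and 40.7% (258 of 634, HSC-marker). The erythroid value rested on 86 cells with GEM-X, of which 1 had a UMI, and 53 cells with v3.1, of which none had and which allow up to 6.72%. Kif23 was found in 11.5% of high erythroid cells and in 33.2 to 50.9% of those of the granulocyte-monocyte, megakaryocyte, no-marker, lymphoid and HSC-marker classes. Knstrn, a kinetochore protein, was found in 10.8% against 22.1 to 35.6%, and Nusap1, a spindle protein, in 25.9% against 47.3 to 60.2%. Prc1, which bundles the central spindle, was found in 44.6% of high erythroid cells against 48.2 to 62.8%. Cenpa, the histone of the centromere, and Cks2, a Cdk1 partner, were found in more of them, at 66.2% against 33.3 to 42.7% and at 78.4% against 56.5 to 62.2%. High cells were chosen by the sum of all members, these genes included, so the set could not be low in them. The shares show only how the UMIs were divided among members. High erythroid cells were the deepest, with a median of 35857 UMIs before thinning, and no class known to lack these genes was in the sort to give a background share.

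In the HSC-marker class the 2 mice differed more than the gates did, and not in mitosis genes alone. All 36 members were higher in both tubes of mouse 1 than in both tubes of mouse 2, which held for 22.0% of all genes. Their sum was 1836 CPM in the positive and 1902 CPM in the negative tube of mouse 1, against 1271 and 1356 CPM in mouse 2. Per gene, mouse 1 was higher by a median of 0.55 on the log2 scale in the positive tubes (0.13 to 0.97) and 0.49 in the negative tubes (0.24 to 0.96). Plk1 differed by 0.78 and 0.96 in the positive and negative tubes, Ube2c by 0.79 and 0.70, Ccnb1 by 0.55 and 0.67, Cdk1 by 0.61 and 0.47, Mki67 by 0.51 and 0.44 and Top2a by 0.43 and 0.44. Fewer members had such an order in other classes, 13 in the no-marker class (19.5% of genes) and 10 in the lymphoid class (19.8%). In the granulocyte-monocyte class 6 were higher in mouse 1 (16.2%) and 12 were lower (35.4%). The mice also differed in depth, with medians of 9095 and 9315 UMIs per cell in mouse 1 against 7731 and 7855 in mouse 2, and within the HSC-marker class in other genes. There Kit had 375 and 365 CPM in the positive and negative tubes of mouse 1, against 438 and 447 CPM in mouse 2, and Txnip 281 and 284 against 398 and 404 CPM. The 12 HSC markers summed to 3762 and 3700 CPM against 3770 and 3703 CPM, with 2 genes wholly above and 8 wholly below in mouse 1. The 11 granulocyte-monocyte markers summed to 421 and 427 against 335 and 325 CPM (7 above, 2 below), and the 10 lymphoid markers to 525 and 510 against 470 and 464 CPM (5 above, 1 below). None of these 33 markers was at 0 in every tube. The part of depth and of these genes in the result was not tested. With 1 animal a side there is no test of the mice.

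The comparison of the gates sets cells with a history of Tppp3-driven Cre around birth against the other cells of the same animals. Over all cells every one of the 36 members was estimated higher in tdTomato-positive cells, but by little, with a median of 0.10 on the log2 scale (0.03 to 0.17) against 0.0017 for all genes. The make-up of the gates differed as well. Granulocyte-monocyte cells were 11.3 and 6.31% of cells in the positive tubes of mice 1 and 2, against 8.89 and 5.22% in the negative tubes, and HSC-marker cells 27.5 and 28.4% against 28.9 and 30.6%. Of 11 granulocyte-monocyte markers 8 were higher in positive tubes in both mice and 0 lower, summing to 2656 and 998 CPM against 1417 and 994 CPM. Of 11 megakaryocyte markers 6 were higher and 1 lower (124 and 157 against 84.3 and 118 CPM), and of 12 HSC markers 1 was higher and 8 lower (1806 and 1891 against 1915 and 1922 CPM). Of 10 lymphoid markers 0 were higher and 6 lower (884 and 633 against 963 and 656 CPM). Of 12 erythroid markers 0 were higher and 5 lower (117 and 142 against 115 and 258 CPM). Erythroid cells were 0.517 and 0.458% of cells in the positive tubes of mice 1 and 2, against 0.420 and 0.824% in the negative tubes. Pf4 alone had 58.8 and 61.2 against 23.8 and 36.1 CPM of the megakaryocyte sums. No marker of these lists was at 0 in every tube, and the part of this make-up in the result was not tested. In edgeR's quasi-likelihood test with the mouse as a block 4 members were called, all higher (0.796% of all genes called, 0.555% higher). Aspm, a spindle pole protein, had 58.6 and 58.6 CPM in the positive tubes of mice 1 and 2, against 53.3 and 51.5 CPM in the negative tubes (0.17 ± 0.0350, adjusted p = 0.00272). Pttg1 (securin) had 48.3 and 41.0 CPM against 41.8 and 38.2 CPM (0.17 ± 0.0394, edgeR adjusted p = 0.0157). Ube2c had 131 and 104 CPM against 113 and 99.5 CPM (0.15 ± 0.0324, edgeR adjusted p = 0.00826). Cenpf had 160 and 153 CPM against 151 and 139 CPM (0.12 ± 0.0308, edgeR adjusted p = 0.0334). Positive tubes lay wholly above negative tubes for Aspm and Cenpf, whereas for Pttg1 and Ube2c the positive tube of mouse 2 lay below the negative tube of mouse 1.

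The other central members did not pass that test. Mki67 had 461 and 454 CPM in positive tubes against 442 and 428 CPM in negative tubes (0.08 ± 0.0307, edgeR adjusted p = 0.361), and Top2a 530 and 495 against 517 and 468 CPM (0.07 ± 0.0306, edgeR adjusted p = 0.641). Ccnb1, Cdk1 and Plk1 differed by 0.16, 0.11 and 0.15. An unadjusted p under 0.05 was found for 29 of 36 members (6.52% of all genes). In 31 of 36 members the positive tube was higher in both mice (20.8% of all genes), and in 11 both positive tubes lay above both negative tubes (7.63%). None of the 4 calls held in DESeq2, in the fit with no replicate block, without Scrublet doublets or with GEM-X alone. Fits with no block or with a tube left out drop the pairing by mouse, here and within the classes below. A loss of calls in those fits therefore cannot weigh the paired result. Without 1 tube the difference of Ube2c ran from -0.065 to 0.34. The share of high cells was 22.7 and 19.6% in the positive tubes, against 21.5 and 18.1% in the negative tubes, a difference of 1.39 ± 0.191 percentage points (mean ± SD of 2 mice). That difference was 2.13 points with GEM-X alone and 0.510 with v3.1 alone. The S phase, other mitosis, regulator and resting-state lists held 0 called genes. Of the 43 other mitosis genes 41 were estimated higher (median 0.07), and of the 24 S phase genes 16 (median 0.01).

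Within the marker classes the gate differences leaned upward except in the HSC-marker class. Members estimated higher in positive cells were 36 of 36 in lymphoid cells (median 0.16), 35 in no-marker cells (0.087) and 29 in granulocyte-monocyte cells (0.063). The medians of all genes there were -0.00063, -0.00086 and 0.0054. In HSC-marker cells 8 of 36 members were estimated higher in positive cells (median -0.03), and Mki67 was the only member called (0.133% of all genes called, 0.0628% lower), lower by 0.17 ± 0.0344 on the log2 scale (edgeR adjusted p = 0.000775). It had 196 and 138 CPM in the positive tubes of mice 1 and 2 against 217 and 160 CPM in the negative tubes. The call did not hold in DESeq2, with no replicate block, without Scrublet doublets, with v3.1 alone or with any tube left out (-0.46 to 0.079). No member had positive tubes wholly above or below negative tubes in that class (12.1% and 13.3% of genes). In no-marker cells 7 members were called higher (0.418% of genes called, 0.358% higher): Aspm (0.26 ± 0.0386), Pttg1 (0.22 ± 0.0474), the spindle motor Kif11 (0.13 ± 0.0293), Knl1 (0.13 ± 0.0289), Mki67 (0.12 ± 0.0198), Cenpf (0.11 ± 0.0275) and Top2a (0.08 ± 0.0195). None of these 7 calls held in DESeq2, with no replicate block or with any tube left out, and with v3.1 alone all but Pttg1 turned in sign (-0.12 for Aspm and -0.13 for Mki67). Of the companion lists, Fbxo5, an inhibitor of the anaphase-promoting complex, and Btg2 were called higher there (0.15 ± 0.0395 and 0.26 ± 0.0684).

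In lymphoid cells 4 members were called higher (0.0803% of genes called, 0.0402% higher): Cenpa (0.35 ± 0.0680), Ube2c (0.27 ± 0.0603), Cenpf (0.24 ± 0.0514) and Mki67 (0.16 ± 0.0378). None of these 4 held in DESeq2, with no replicate block, without Scrublet doublets, with GEM-X alone (-0.048 for Ube2c) or with any tube left out. Positive tubes lay wholly above negative tubes for 22 members there (12.7% of genes) and for 17 in no-marker cells (10.9%). In granulocyte-monocyte cells edgeR called 0 members (0.495% of genes called), 3 had an unadjusted p under 0.05 (6.40% of genes) and DESeq2 called 0. Positive tubes of that class lay wholly above negative tubes for 6 members (9.12% of genes) and wholly below for 2 (16.9%). Ccnb1, Cdk1 and Plk1 were called in no class. The difference between classes was itself tested, and edgeR called 0 of 36 members for the gate effect in granulocyte-monocyte, lymphoid or no-marker cells against HSC-marker cells (0.00% of genes in each), with 0, 1 and 1 members at an unadjusted p under 0.05 (5.32%, 3.28% and 1.90% of genes). DESeq2 was not run on these differences.

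Gate values within a class were also taken for each chemistry apart, with no test within the classes. The log2 ratio of the summed members, positive over negative, was -0.23 (GEM-X) and 0.17 (v3.1) in HSC-marker cells of mouse 1, and -0.06 and -0.15 in those of mouse 2. In no-marker cells it was 0.15 and -0.17 in mouse 1 and 0.17 and 0.0029 in mouse 2. Lymphoid cells had the same sign throughout, with 0.03 and 0.31 in mouse 1 and 0.11 and 0.34 in mouse 2. Over all cells the 4 values were 0.11 and 0.06 (mouse 1) and 0.08 and 0.04 (mouse 2). Over all cells the test of the gate effect between chemistries called 0 of 36 members in edgeR (0.0441% of all genes), with 8 at an unadjusted p under 0.05 (4.21%).

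**Figure D4:**
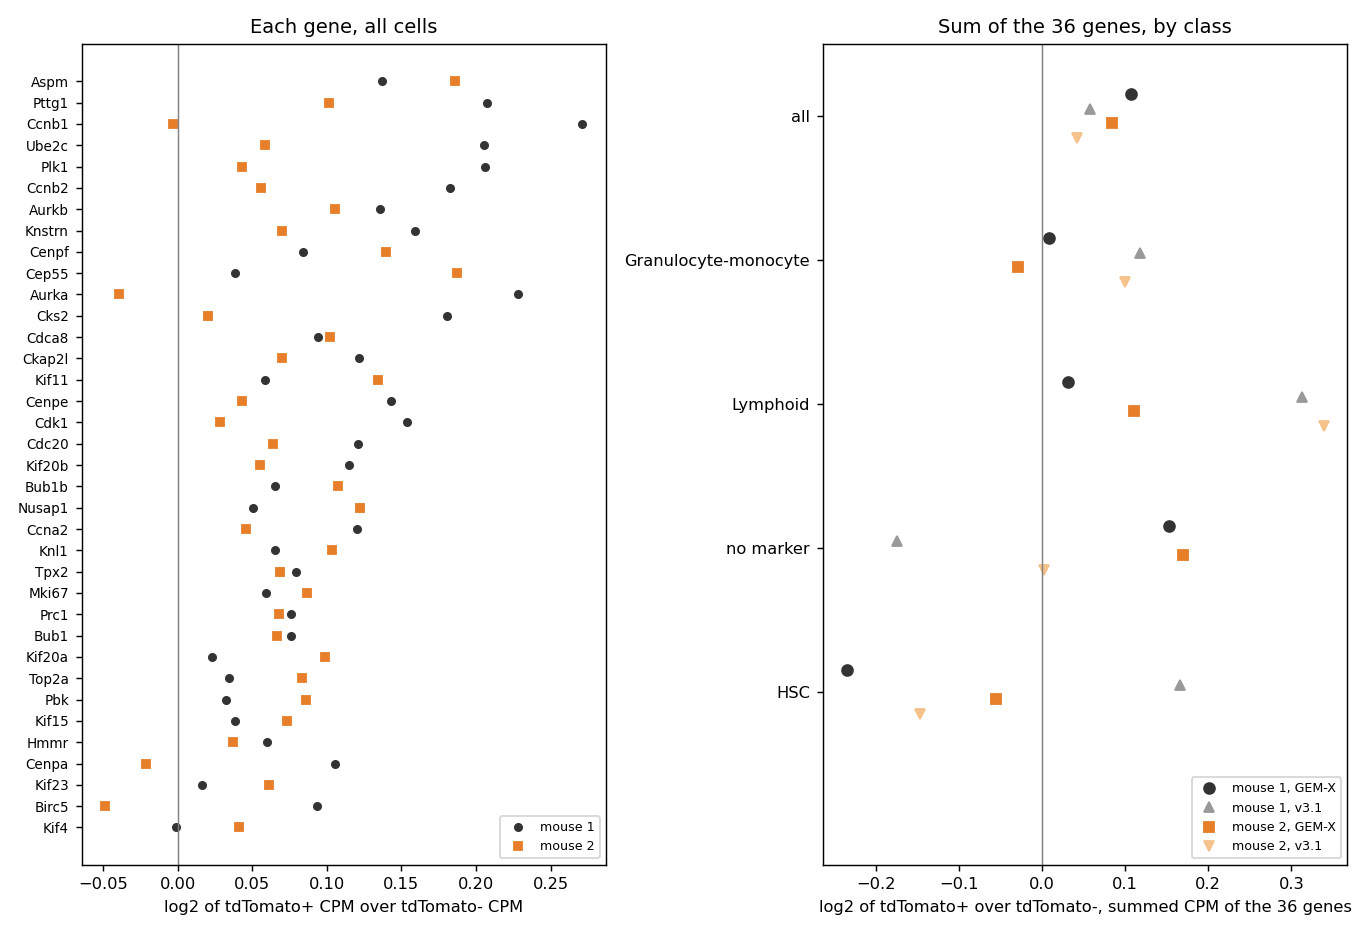
Gate difference (log2 of tdTomato-positive over negative CPM) of each of the 36 mitosis genes over all cells, 1 point per mouse (left), and of their summed CPM over all cells and by class, 1 point per mouse and chemistry (right). Most points on the left lie above 0; on the right the HSC-marker class runs from -0.23 to 0.17 and the lymphoid class from 0.03 to 0.34.

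Most members differed in level between the chemistries, and in both directions. Of the 36 genes, 25 were higher and 8 lower with GEM-X than with v3.1 in edgeR's fit with the tube as a block, with a median of 0.49 (-0.53 to 1.70). Over all genes 73.2% were called, 37.0% higher and 36.2% lower. Mki67 had 644, 631, 607 and 590 CPM with GEM-X, against 192, 188, 197 and 192 CPM with v3.1 (1.70 ± 0.0203, 3.25-fold). Aspm had 78.3, 78.0, 70.5 and 68.0 CPM against 29.8, 29.3, 27.6 and 27.5 CPM (1.38 ± 0.0304). Top2a had 653, 613, 631 and 574 CPM against 350, 319, 347 and 312 CPM (0.92 ± 0.0157). Kif20b, a kinesin of late mitosis, Cenpe and Kif4 differed by 1.04, 1.03 and 1.03, Plk1 by 0.51 and Ccnb1 by 0.12. All 7 kinesins were higher, with a median of 0.74.

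The members lower with GEM-X were led by Cenpa, which had 73.3, 63.7, 68.8 and 64.6 CPM with GEM-X, against 108, 95.4, 99.4 and 96.3 CPM with v3.1 (-0.53 ± 0.0195). Ube2c and Cks2 fell by 0.38 each, Birc5 by 0.34, Aurkb by 0.20, Pbk, a mitotic kinase, by 0.14 and Cdk1 by 0.09, and Pttg1 was the eighth. Ccnb2, Cdca8 and Nusap1 were not called. In every tube 24 members were higher and 8 lower. The order followed the length of the longest annotated transcript (GENCODE M21): Spearman's rho between length and difference was 0.738 over the 36 members and 0.406 over 15849 genes, as a description across genes that share libraries. Median length was 3892 bases for the 25 members called higher and 2070.5 for the 8 called lower, and 3982.5 and 2181 for all genes so called. With each chemistry all tubes shared a single gene expression library. The SE and calls between chemistries therefore measure spread within these libraries, and the tubes are not replicates of a chemistry. A difference between the libraries themselves and the Cell Ranger version both go with the chemistry and cannot be told apart from it.

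The chemistries also gave different shares of high cells. With GEM-X 25.6 and 22.5% of cells in the positive tubes of mice 1 and 2 and 23.6 and 20.2% in the negative tubes were high. With v3.1 these were 19.2, 16.0, 18.7 and 15.4%. By class, over the pooled cells of all tubes, GEM-X against v3.1 gave 48.2 against 36.3% in granulocyte-monocyte cells and 25.7 against 22.1% in no-marker cells. It gave 21.4 against 20.4% in lymphoid cells and 7.61 against 5.83% in HSC-marker cells. As means of 4 tubes the lymphoid shares were 21.4 against 22.0%, the other direction, so that class showed no clear difference. The HSC-marker class was the lowest of these with either chemistry. Whether 10 UMIs mark like cells with both chemistries was not tested.

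**Figure D5:**
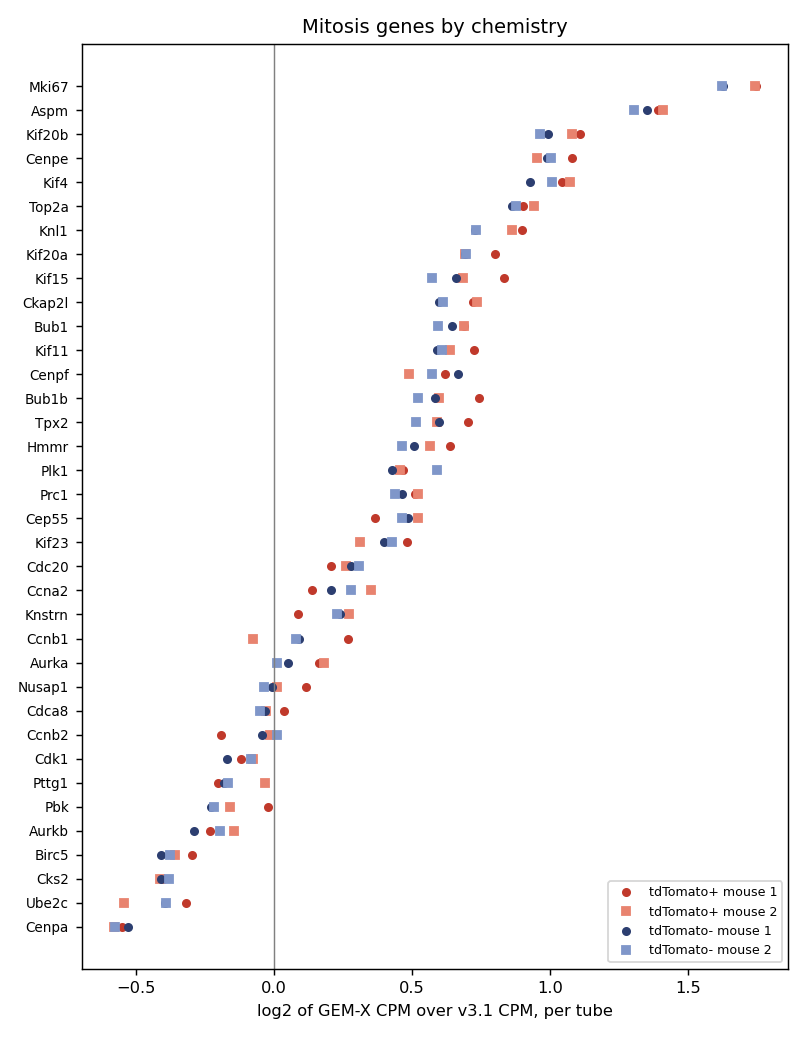
Log2 ratio of GEM-X over v3.1 CPM for each of the 36 mitosis genes, 1 point per tube, ordered by the difference in edgeR's fit. Mki67 and Aspm lie at the top, with fitted differences of 1.70 and 1.38, and Cenpa at the bottom with -0.53; the 4 tubes of a gene lie close together.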

How the data were processed

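Gene expression and hashtag libraries of the GEM-X and v3.1 chemistries were analysed. The authors deposited raw UMI counts per gene or hashtag and cell barcode, restricted to called cells, and per the file headers Cell Ranger was version 8.0.1 for GEM-X and 7.1.0 for v3.1, while the submitters' processing notes name 7.0.0 and mm10. The chemistry of each matrix was inferred from its name and version. Hashtags were assigned to mice and gates by the authors' own list; the labels describe the sort in 2 ways, and each hashtag was read as 1 mouse and gate. GEM-X held 234563105 UMIs in 20511 barcodes and v3.1 178214937 in 17755.

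Barcodes under 1000 detected genes or over 10% mitochondrial UMIs were removed, leaving out 371 (GEM-X) and 1034 (v3.1). Hashtags were called by a 2-component Gaussian mixture (posterior 0.5; scikit-learn 1.9.0), and 17986 and 14344 cells with 1 hashtag were used. Cells with several (2091 and 2364) or none (63 and 13) were left out. Doublets within a tube remain; a Scrublet score of at least 0.2 (scanpy 1.11.5), set after its automatic threshold called 0% of cells, marked 4.09% and 3.77% of cells and 27.2% and 20.5% of hashtag doublets. Marker classes used summed marker UMIs at 3000 UMIs per cell, with thresholds set from marker levels after the data were seen (8 UMIs for HSC markers, 5 for granulocyte-monocyte, lymphoid, B cell and neutrophil, 4 for erythroid, 3 for megakaryocyte and mast-basophil markers); lists of T and NK cells and of macrophages and dendritic cells defined no class. The 10 UMIs for a high cell were also set after the data were seen.

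Counts were summed per tube and tested by quasi-likelihood in edgeR 4.0.16 under R 4.3.3 (filterByExpr, TMM, dispersions of at least 1e-04) with Benjamini-Hochberg adjustment at 0.05 over all genes: 4 sums with the mouse as a block for the gates (1 residual degree of freedom), 8 with the tube as a block for the chemistries, and 16 with the tube as a block for the 4 classes with at least 100 cells in every tube. SE is the log2 difference divided by the square root of F. The gates are paired by animal; mouse 1 over mouse 2 in positive and in negative tubes correlated across 9368 genes (Pearson r 0.850, Spearman rho 0.805), which are not replicates. On simulated counts with known changes, the test recovered 77% of genes changed by 0.5 on the log2 scale for the gates over all cells, 59% for the gates in the HSC-marker class, 89% for the classes and 92% for the chemistries. Alternatives were DESeq2 1.42.0, other scaling, filters, blocks, cells, thinning and thresholds. The members, companion lists and tests were chosen with earlier results of these data known. Named were 6 fixed members, up to 6 more per direction with the largest change past the test, and up to 4 genes per companion list; exceptions are marked. Intervals are exact binomial and cover counting error only. Coordinates are from RefSeq (GRCm38.p6), transcript lengths from GENCODE M21.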

Additional observations from a re-analysis of the deposited data

Results flagged for a closer look

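Plk1, the Polo-like kinase, had 66.6 and 41.8 CPM in megakaryocyte-class cells of the positive tubes of mice 1 and 2, and 40.7 and 38.1 CPM in those of the negative tubes. The positive tube of mouse 1, which held 40 such cells, stood apart from the other 3, with a gap to its nearest neighbour of 0.872 of the whole range. Chance gives such a gap in about 1 of 20 groups, and 56 groups were looked at.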

How the results depend on the processing

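All 36 members stayed higher in the granulocyte-monocyte, lymphoid and no-marker classes than in the HSC-marker class under every alternative run, and 27 to 33 were called between chemistries. The gate calls did not hold. Over all cells 4 called members became 0 with DESeq2, no replicate block, Scrublet doublets left out or GEM-X alone, 2 with v3.1 alone, and 0 without any 1 tube. In the HSC-marker class 1 became 0 with DESeq2, no replicate block, Scrublet, v3.1 alone or any tube left out. In the no-marker class 7 became 0 with DESeq2, no replicate block or any tube left out, 19 with GEM-X alone and 1 with v3.1 alone. In the lymphoid class 4 became 1 with DESeq2 size factors, 0 with DESeq2, no replicate block, Scrublet, GEM-X alone or any tube left out, 2 with no filter and 10 with v3.1 alone. In the granulocyte-monocyte class 0 became 0 to 1 without 1 tube. Fits without a tube had no mouse block and assume that a lone tube varies like the others, and the cause of these changes was not tested. The share of high cells (20.5% over tubes) was 26.9% at 5 UMIs, 13.1% at 20, 16.2 and 26.1% when thinned to 2000 and 5000, 30.2% with no thinning, 22.9% with GEM-X and 17.3% with v3.1. Its gate difference (1.39 points) was 1.76, 0.956, 0.994, 1.63, 1.01, 2.13 and 0.510 in that order, and 1.76 without Scrublet doublets. Stricter marker thresholds gave ratios to the HSC-marker class of 14.1 (granulocyte-monocyte), 4.86 (lymphoid) and 5.68 (no marker). The gate sign turned (log2) for Mki67 over all cells with v3.1 alone (-0.021). In the HSC-marker class it turned for Ccnb1 with GEM-X (-0.32), for Cdk1, Plk1 and Ube2c without Scrublet doublets (0.0068, 0.036, 0.048) and with v3.1 (0.023, 0.17, 0.17), for Plk1 with DESeq2 (0.023), and for Plk1 and Ube2c with no replicate block (0.0074, 0.0024). In the no-marker class with v3.1 it turned for Mki67 (-0.13), Top2a (-0.068), Ccnb1 (-0.047), Cdk1 (-0.060), Plk1 (-0.20), Ube2c (-0.089), Aspm (-0.12), Kif11 (-0.12), Knl1 (-0.10) and Cenpf (-0.024), and in the lymphoid class with GEM-X for Plk1 (-0.16) and Ube2c (-0.048). Without 1 tube the ranges that crossed 0 were, over all cells, -0.026 to 0.17 for Top2a, -0.083 to 0.36 for Ccnb1, -0.095 to 0.28 for Cdk1, -0.18 to 0.42 for Plk1 and -0.065 to 0.34 for Ube2c. In the HSC-marker class they were -0.46 to 0.079 for Mki67, -0.34 to 0.15 for Top2a, -0.26 to 0.45 for Ccnb1, -0.37 to 0.25 for Cdk1, -0.45 to 0.58 for Plk1 and -0.47 to 0.41 for Ube2c. In the no-marker class they were -0.0093 to 0.18 for Top2a, -0.058 to 0.19 for Cdk1, -0.062 to 0.32 for Plk1 and -0.028 to 0.19 for Ube2c. In the granulocyte-monocyte class they were -0.014 to 0.054 for Mki67, -0.22 to 0.40 for Ccnb1, -0.042 to 0.24 for Cdk1, -0.40 to 0.45 for Plk1 and -0.16 to 0.35 for Ube2c, and in the lymphoid class -0.022 to 0.15 for Top2a and -0.027 to 0.29 for Cdk1. With 2 animals, small classes (191 erythroid cells) and 1 residual degree of freedom, gate differences of this size are near the limit of these data.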

Other observations

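Beyond the 36 members, the chemistries differed for the companion lists too. Of 24 S phase genes 14 were higher and 8 lower with GEM-X than with v3.1 in edgeR's fit, of 43 other mitosis genes 30 and 5, of 15 regulators 10 and 4, and of 11 inhibitors and resting-state genes 5 and 5, where 37.0% of all genes were called higher and 36.2% lower. Cdkn1b (p27), an inhibitor of cyclin-dependent kinases, was higher by 1.12 ± 0.0352 on the log2 scale, E2f8 by 0.94 ± 0.0351 and Rbl2 by 0.84 ± 0.0243, while Cdkn1c fell by 0.38 ± 0.0586. The B cell class, with 48 cells, had 62.5% of cells high in mitosis genes, and the mast-basophil class, with 129 cells, 38.0%.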
